A study of Mus musculus with 4 samples.

Results

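The 10 genes described here belong to the integrated stress response: the eIF2 kinase genes Eif2ak3 and Eif2ak4, the transcription factor genes Atf4, Atf3 and Ddit3, and Trib3, Ppp1r15a, Asns, Sesn2 and Ddit4, which are known targets of ATF4 or of its partners. They were chosen by name, out of 21887 protein-coding genes, with earlier results of these data known. In each library the Sub1 peaks overlapping the gene body extended by 5 kb on each side were taken, on mm10 coordinates. The assay was CUT&Tag, in which an antibody brings a transposase to a chromatin protein and the DNA around it is cut and tagged, here for Sub1, known as a coactivator that binds DNA. The LSC group consists of leukemia stem cells sorted from bone marrow of mice with MLL-AF9-driven leukemia, as CD34+ CD16/32+ cells of the c-Kit+ fraction that lacked lineage markers and Sca-1. The HSC group consists of hematopoietic stem cells sorted from bone marrow as CD48- CD150+ cells of the LSK fraction (no lineage markers, with Sca-1 and c-Kit). Each group has 2 libraries, and the mice of both groups were Nup214fl/+, that is, heterozygous for a floxed allele of a nuclear pore gene. The labels give no Cre, age, or way in which MLL-AF9 was introduced, nor do they say whether cells of several mice were pooled or whether the pair in each group stands for different animals. The p-values therefore measure only the spread between libraries, which may be technical.

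When the integrated stress response is active, kinases that sense a shortage of amino acids (GCN2, encoded by Eif2ak4), unfolded protein in the endoplasmic reticulum (PERK, encoded by Eif2ak3) or other stress phosphorylate the alpha subunit of the initiation factor eIF2. Translation falls in general, while that of the Atf4 mRNA rises through its upstream open reading frames. ATF4, often as a dimer with a C/EBP protein, then binds C/EBP-ATF response elements at genes of amino acid supply, redox balance and feedback control. In blood stem and progenitor cells the pathway is known for its part in the choice between survival and death under stress. Much of this control acts on translation, and a peak of a chromatin protein at a gene shows neither its expression nor the state of the pathway.

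LSC 1 and LSC 2 had 41097 and 34185 deposited peaks, and HSC 1 and HSC 2 had 115881 and 235680. Sequencing depth is unknown; solving the caller's fold and p for background gave 4.54 and 4.50 reads at a position in LSC 1 and LSC 2, against 3.07 and 7.47 in HSC 1 and HSC 2. Since list lengths differ, comparisons between the groups are also given for equal-sized lists, which hold the 34185 peaks of lowest p-value in each library. The prefix H4-Cut in the peak names of all 4 lists has no counterpart in the labels, from which alone the Sub1 target is known. Among the sorting markers, Ly6a (encoding Sca-1) had 1 and 1 peaks in its window in LSC 1 and LSC 2 and 6 and 8 in HSC 1 and HSC 2, and Slamf1 (CD150) had 0 and 0 in the LSC libraries and 1 and 9 in the HSC libraries. These counts are from deposited lists, where both LSC libraries had fewer peaks than both HSC libraries at 57.9% of all genes. Cd34 had a promoter peak in LSC 1, LSC 2 and HSC 2, but that of HSC 2, like the one at Slamf1 there, was too weak for the equal-sized list. Fcgr3 and Fcgr2b (CD16/32), Kit and Cd48 had one in all 4. In deposited lists both LSC libraries also had fewer window peaks than both HSC libraries at Kit, Cd48 and Fcgr2b. The counts in LSC 1, LSC 2, HSC 1 and HSC 2 were 1, 1, 6 and 11 at Kit. They were 1, 2, 5 and 9 at Cd48 and 2, 2, 7 and 10 at Fcgr2b. At Cd34 (4, 1, 1 and 6) and Fcgr3 (6, 6, 12 and 6) the groups overlapped. A bulk peak list cannot tell fewer cells with a bound site from less binding per cell.

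The promoter sequences of 6 genes are shown because they stand at the ends of the order described below or carry a match to an ATF motif. Ddit3 and Sesn2 had the strongest promoter peaks of the 10 genes, Trib3, Atf3 and Asns the weakest by median rank, and Ppp1r15a holds a full cyclic AMP response element. Each runs 5′ to 3′ from 250 bases before the annotated start (RefSeq, GRCm38.p6), and capitals mark matches on either strand to TGATGNAA, a C/EBP-ATF response element pattern, or TNACGTCA, a cyclic AMP response element pattern.
Ddit3, chr10:127290543-127290842, plus strand: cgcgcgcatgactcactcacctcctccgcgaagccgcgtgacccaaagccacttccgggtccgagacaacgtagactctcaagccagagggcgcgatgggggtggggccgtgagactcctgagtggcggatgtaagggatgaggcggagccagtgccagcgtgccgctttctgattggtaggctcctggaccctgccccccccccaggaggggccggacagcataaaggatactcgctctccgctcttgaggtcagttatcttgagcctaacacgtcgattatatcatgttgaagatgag
Sesn2, chr4:132510407-132510706, minus strand: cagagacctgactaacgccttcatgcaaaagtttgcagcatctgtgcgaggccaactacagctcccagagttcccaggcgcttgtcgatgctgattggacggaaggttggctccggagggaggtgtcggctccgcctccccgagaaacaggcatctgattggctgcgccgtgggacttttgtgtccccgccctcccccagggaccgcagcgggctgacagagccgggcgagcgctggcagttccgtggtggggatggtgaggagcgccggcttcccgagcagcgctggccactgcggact
Ppp1r15a, chr7:45526219-45526518, minus strand: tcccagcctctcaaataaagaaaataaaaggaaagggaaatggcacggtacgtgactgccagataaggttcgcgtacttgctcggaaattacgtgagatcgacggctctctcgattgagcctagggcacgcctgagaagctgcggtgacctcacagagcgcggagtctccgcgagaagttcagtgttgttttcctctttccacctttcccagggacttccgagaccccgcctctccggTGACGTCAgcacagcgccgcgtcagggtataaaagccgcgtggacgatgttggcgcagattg
Trib3, chr2:152344011-152344310, minus strand: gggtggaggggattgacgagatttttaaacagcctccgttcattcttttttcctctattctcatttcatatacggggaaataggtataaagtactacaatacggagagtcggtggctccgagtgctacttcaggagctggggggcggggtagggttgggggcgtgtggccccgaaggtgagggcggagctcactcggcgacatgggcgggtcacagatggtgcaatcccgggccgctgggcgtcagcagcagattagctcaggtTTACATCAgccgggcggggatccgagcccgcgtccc
Atf3, chr1:191183284-191183583, minus strand: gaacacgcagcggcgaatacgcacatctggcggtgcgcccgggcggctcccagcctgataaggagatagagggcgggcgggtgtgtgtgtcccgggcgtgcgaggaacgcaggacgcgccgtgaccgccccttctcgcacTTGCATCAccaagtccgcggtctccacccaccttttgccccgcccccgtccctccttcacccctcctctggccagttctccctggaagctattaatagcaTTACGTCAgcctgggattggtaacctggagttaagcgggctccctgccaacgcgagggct
Asns, chr6:7693160-7693459, minus strand: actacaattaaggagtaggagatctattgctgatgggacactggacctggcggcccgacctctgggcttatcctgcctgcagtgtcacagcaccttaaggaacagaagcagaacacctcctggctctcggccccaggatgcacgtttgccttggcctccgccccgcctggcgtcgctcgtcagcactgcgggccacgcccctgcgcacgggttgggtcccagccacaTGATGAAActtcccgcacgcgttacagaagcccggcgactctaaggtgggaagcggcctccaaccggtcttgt

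All 10 genes had an entry in the promoter table. TGATGNAA, searched on both strands, was found in the 300 bases of Atf3, Trib3 and Asns and in 3.69% of 17492 protein-coding promoters. The stricter TGATGCAA, every match of which also matches TGATGNAA, was found at Atf3 alone among the 10, as TTGCATCA from position -110 to -103, and in 0.909% of promoters. TNACGTCA was found at Atf3 and Ppp1r15a and in 3.62% of promoters, and the palindrome TGACGTCA, part of that pattern, at Ppp1r15a alone among the 10 and in 2.34%. CCAAT was found at 6 of 10 genes against 39.0% of promoters, and 6 times at Eif2ak3. GGGCGG was found at 6 of 10 against 46.3%, and TATAAA at Trib3 and Ppp1r15a against 13.3%. The full endoplasmic reticulum stress element was found at none of the 10 and in 0.160% of promoters. GC content ran from 54.7% at Eif2ak3 to 69.0% at Ddit4, against a median of 56.3%, and CpG counts from 17 to 27, against a median of 13. These matches describe letters in a fixed window.

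Sub1 peaks lay at the start of every one of the 10 genes in every library. Each gene had a peak within 1 kb of its annotated start, called a promoter peak here, in LSC 1, LSC 2, HSC 1 and HSC 2. Of 17492 protein-coding genes with an annotated start, 55.0% and 52.8% had one in LSC 1 and LSC 2 and 56.1% and 63.5% in HSC 1 and HSC 2, and 49.8% had one in all 4. In equal-sized lists all 10 genes again had one in all 4 libraries, against 45.6% of genes (54.4% and 52.8% in LSC 1 and LSC 2, 49.2% and 48.8% in HSC 1 and HSC 2). For the whole window, 10 of 10 genes had a peak in every library, against 64.2% and 59.7% of 21887 genes in LSC 1 and LSC 2, 71.9% and 87.2% in HSC 1 and HSC 2, and 58.0% in all 4. In equal-sized lists the same held for 10 of 10 genes, against 62.2% and 59.7% in the LSC libraries, 56.1% and 58.9% in the HSC libraries, and 52.2% in all 4. No gene of the 10 had a window peak in the LSC libraries alone (0.0366% of genes, or 2.36% in equal-sized lists) or in the HSC libraries alone (8.21%, or 0.416%). Since each window includes the promoter, these window counts follow from the promoter peaks and add no separate result. The strongest promoter peak covered or lay close to the start, with its summit downstream of it in 8 and 8 genes in LSC 1 and LSC 2 and in 7 and 8 in HSC 1 and HSC 2. The median summit lay 226 and 228 bases downstream in the LSC libraries and 198 and 274 in the HSC libraries. Over all genes with a promoter peak in all 4 libraries those medians were 196 and 226 bases in the LSC libraries and 187 and 230 in the HSC libraries.

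**Figure D1:**
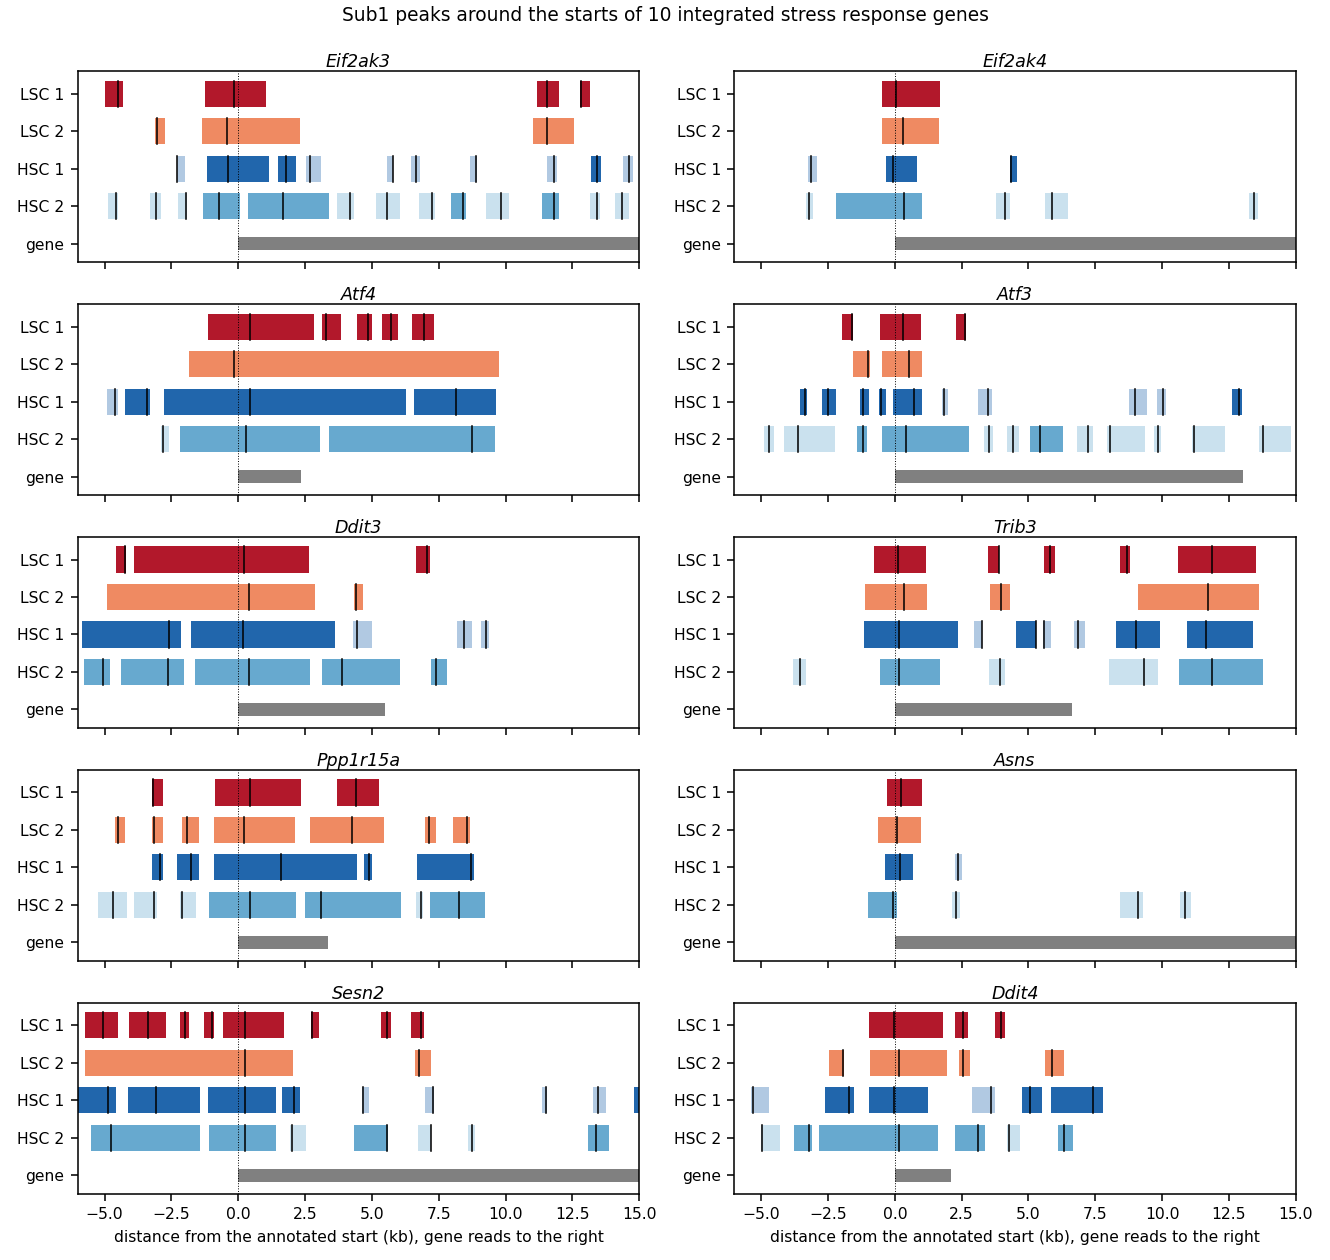
Sub1 peaks of the deposited lists around the starts of the 10 genes, with distance from the annotated start in kb on the horizontal axis and 1 row per library. Full colour marks peaks in equal-sized lists, pale colour weaker peaks, black lines summits and grey bars the gene. All 10 genes have a peak at the start in all 4 rows, and the HSC rows hold more peaks away from it, for example at Eif2ak3 and Atf3.

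The kinase genes had moderate promoter peaks and long gene bodies in which the numbers of peaks differed widely between libraries. Eif2ak3 lies on chromosome 6 from 70844484 to 70905241 on the plus strand. Its promoter peak had an authors' fold, the ratio of pileup to background within 1 library, of 71.2 in LSC 1, 58.9 in LSC 2, 31.7 in HSC 1 and 25.4 in HSC 2. Folds depend on each library's background and are not compared between libraries here. Peaks of a list are ordered by p-value, with fold used to break ties. In equal-sized lists the Eif2ak3 promoter peak ranked 7670 and 6368 in LSC 1 and LSC 2 and 4584 and 8467 in HSC 1 and HSC 2. Rank 1 is the strongest peak, and the groups overlapped. Its window held 6 and 4 peaks in LSC 1 and LSC 2 and 15 and 22 in HSC 1 and HSC 2, of which 4 and 2 (LSC) and 13 and 16 (HSC) had their summit in the gene body away from the promoter. One of them was found in all 4 libraries, between 11022 and 12558 bases downstream of the start, with the summit at 11561 in both LSC libraries and 11813 in both HSC libraries. The small nucleolar RNA gene Gm23346 is annotated from 70855444 to 70855579, and the LSC 2 peak, which begins at 70855537, overlaps its end. In equal-sized lists the Eif2ak3 window held 4 and 4 peaks in the LSC libraries and 5 and 4 in the HSC libraries, so the difference in number lay in the weaker HSC peaks.

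Eif2ak4 lies on chromosome 2 from 118388583 to 118475234 on the plus strand and has 2 annotated starts in the promoter table. Its window held 3 and 2 peaks in LSC 1 and LSC 2 and 6 and 15 in HSC 1 and HSC 2. No peak had its summit in the gene body away from the promoter in LSC 1 or LSC 2, against 3 in HSC 1 and 11 in HSC 2. Among equal-sized lists that window held 2 and 2 peaks in the LSC libraries and 3 and 5 in the HSC libraries. The promoter peak had folds of 166 and 49.8 in the LSC libraries and 34.4 and 17.7 in the HSC libraries. In equal-sized lists it ranked 2432 and 7234 in LSC 1 and LSC 2 and 3901 and 14618 in HSC 1 and HSC 2, where rank 1 is the strongest peak. The groups overlapped, and the libraries of each group stood far apart. At the far end of the window a region of peaks was present in all 4 libraries, 87991 to 91548 bases from the Eif2ak4 start. The start of Srp14, which encodes a signal recognition particle subunit, lies 91079 bases from that of Eif2ak4 on the opposite strand. In HSC 2 this peak, with a fold of 28, was stronger than the promoter peak of Eif2ak4 itself.

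Atf4, the central transcription factor gene of the pathway, had the most fully covered window of the 10 in LSC 1, LSC 2 and HSC 1, and the second after Ppp1r15a in HSC 2. It lies on chromosome 15 from 80255184 to 80257545 on the plus strand, and 53.9% and 74.6% of its window were under peaks in LSC 1 and LSC 2, against 90.2% and 77.1% in HSC 1 and HSC 2. In these deposited lists the groups did not overlap, but in equal-sized lists they did, at 53.9% and 74.6% in LSC 1 and LSC 2 and 86.9% and 74.6% in HSC 1 and HSC 2. The promoter peak was 3959 and 11616 bases wide in the LSC libraries and 9021 and 5246 in the HSC libraries, so its width did not separate the groups. Its rank in equal-sized lists was 6706 and 4058 in LSC 1 and LSC 2 and 2840 and 1011 in HSC 1 and HSC 2, weaker in both LSC libraries. In LSC 2 a single peak ran from 1860 bases upstream to 9755 downstream of the start, where LSC 1 had 5 peaks, which is why numbers of peaks are read beside covered length. Mief1, which encodes a mitochondrial fission adaptor, ends at 80253372, and Rps19bp1 runs from 80260614 to 80264306, so part of this coverage lies over neighbouring genes.

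Atf3, a stress-induced bZIP factor gene, differed between the groups in how far peaks spread beyond the start. It lies on chromosome 1 from 191170296 to 191183333 on the minus strand, and the RefSeq table lists no other gene in its window. That window held 3 and 2 peaks in LSC 1 and LSC 2 and 10 and 13 in HSC 1 and HSC 2, or 3 and 2 (LSC) and 6 and 3 (HSC) in equal-sized lists. Peaks covered 10.1% and 9.39% of it in the LSC libraries and 20.0% and 56.3% in the HSC libraries. The LSC libraries lay close together and below both HSC libraries, and the HSC libraries lay far apart. In equal-sized lists the covered shares were 10.1% and 9.39% in LSC 1 and LSC 2 and 12.4% and 20.9% in HSC 1 and HSC 2, with the same order of groups. The promoter peak ranked 10419 and 9937 in the LSC libraries and 8367 and 7711 in the HSC libraries, weaker in both LSC libraries.

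Ddit3, which encodes the death-promoting factor CHOP, had the strongest promoter peak of the 10 genes in 3 libraries and ranked second to Sesn2 in LSC 2. It lies on chromosome 10 from 127290793 to 127296291 on the plus strand. The promoter peak ranked 480 and 295 in LSC 1 and LSC 2 and 448 and 131 in HSC 1 and HSC 2, and the groups overlapped. Among 17492 genes, 2.74% and 1.78% had a stronger promoter peak in the LSC libraries and 2.31% and 0.572% in the HSC libraries. The peak was 6528 and 7776 bases wide in LSC 1 and LSC 2 and 5392 and 4290 in HSC 1 and HSC 2, wider in both LSC libraries, as at 38.3% of genes with a promoter peak in all 4. The LSC peaks began at positions -3892 and -4899 from the start, and LSC 1 had a further small peak from -4568 to -4196. In the HSC libraries the promoter peaks began at -1779 and -1614, and further upstream lay 1 other peak in HSC 1, with its summit at -2600, and 2 in HSC 2, with summits at -2614 and -5076. Mbd6, which encodes a methyl-CpG-binding domain protein, has starts at -1775 and -1912 on the opposite strand, and its annotated gene overlaps Ddit3 by 77 bases, so the peak cannot be assigned to Ddit3 alone. At its other end Ddit3 overlaps Mars1 by 71 bases.

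Trib3 encodes a pseudokinase that inhibits ATF4 and is itself an ATF4 target. The gene runs from 152337425 to 152344060 on chromosome 2, minus strand, with the start of the long non-coding RNA gene Gm14164 at position -1609 on the opposite strand. Its promoter peak had nearly the same rank in all libraries, 9071 and 9079 in LSC 1 and LSC 2 and 9089 and 9003 in HSC 1 and HSC 2. The strongest peak of its window was another one, with its summit 11854 and 11725 bases downstream of the start in the LSC libraries and 11654 and 11853 in the HSC libraries. That peak ranked 483, 174, 727 and 922 in LSC 1, LSC 2, HSC 1 and HSC 2, and starts of Rbck1, which encodes a ubiquitin ligase subunit, lie 11421 and 11635 bases from that of Trib3. Promoter values given here for Trib3 leave that peak out, while values for its window include it.

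Ppp1r15a encodes GADD34, the stress-induced phosphatase subunit that removes the phosphate from eIF2 and closes the feedback loop. The gene runs from 45522917 to 45526268 on chromosome 7, minus strand, with starts of Plekha4 at positions -62 and -3331 on the opposite strand. Tulp2 overlaps Ppp1r15a by 730 bases, so part of the coverage of the Ppp1r15a window lies over neighbouring genes. Peaks covered 39.0% and 59.6% of its window in LSC 1 and LSC 2 and 64.1% and 79.3% in HSC 1 and HSC 2, or 39.0% and 59.6% (LSC) and 64.1% and 60.2% (HSC) in equal-sized lists. The promoter peak ranked 6954 and 6290 in the LSC libraries and 4524 and 3911 in the HSC libraries. Both measures put the LSC libraries on the weaker side, and the promoter peak covers the starts of both genes. The HSC 1 summit lay 1591 bases downstream of the start, the 1 case among the 10 genes of a summit beyond 1 kb. At 5358 bases that peak, and at 3261 the one in HSC 2, were wider than the 3230 and 3025 bases of LSC 1 and LSC 2, an order seen at 10.4% of genes.

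Asns, which encodes asparagine synthetase, was covered little beyond its promoter. It lies on chromosome 6 from 7675165 to 7693209 on the minus strand, and its window held a single peak in each LSC library, at the promoter, against 2 and 5 peaks in HSC 1 and HSC 2. In equal-sized lists each of the 4 libraries had that 1 peak alone. The promoter peak ranked 9395 and 11284 in LSC 1 and LSC 2 and 10513 and 13480 in HSC 1 and HSC 2, and the groups overlapped. It was 1307 and 1618 bases wide in the LSC libraries and 1050 and 1083 in the HSC libraries. That is wider in both LSC libraries, as at 38.3% of genes with a promoter peak in all 4. Within 1 kb of the start, peaks covered 64.4% and 80.9% in LSC 1 and LSC 2 and 52.5% and 53.4% in HSC 1 and HSC 2. Both LSC values were higher, as at Atf3 and at 28.7% of genes, while Ppp1r15a had the opposite order, as did 5.83%. The Asns summit lay 240 and 79 bases downstream of the start in LSC 1 and LSC 2, 206 downstream in HSC 1 and 69 upstream in HSC 2.

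Sesn2, which encodes sestrin 2, an antioxidant and leucine-sensing regulator of mTORC1, was the 1 gene whose promoter peak ranked higher in both LSC libraries. It lies on chromosome 4 from 132492804 to 132510456 on the minus strand. The ranks were 699 and 159 in LSC 1 and LSC 2 and 1860 and 1205 in HSC 1 and HSC 2. All 4 libraries placed the summit at the same base, 250 bases downstream of the start. Over 8712 genes with a promoter peak in all 4 libraries, 14 (0.161%) had the same summit in all 4, and 2.25% had summits within 10 bases. In LSC 2 the peak was 7770 bases wide and reached to position -5718, while LSC 1, HSC 1 and HSC 2 had peaks of 2293, 2518 and 2516 bases and separate peaks upstream. The window as a whole was less covered in LSCs, with 24.9% and 27.7% in LSC 1 and LSC 2 and 40.4% and 39.5% in HSC 1 and HSC 2. In equal-sized lists it was 24.9% and 27.7% in the LSC libraries and 32.8% and 29.6% in the HSC libraries.

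Ddit4, which encodes REDD1, another inhibitor of mTORC1, lies on chromosome 10 from 59949675 to 59951770 on the minus strand, with no other gene in its window in the RefSeq table. Its promoter peak ranked 3653 and 3115 in LSC 1 and LSC 2 and 3568 and 1751 in HSC 1 and HSC 2, and the groups overlapped. Peaks covered 30.3% and 37.5% of the window in the LSC libraries and 53.4% and 66.1% in the HSC libraries, lower in both LSC libraries. In equal-sized lists the shares were 30.3% and 37.5% in LSC 1 and LSC 2 and 43.9% and 56.2% in HSC 1 and HSC 2. The summit lay 18 bases upstream of the start in LSC 1 and HSC 1, and 145 and 144 bases downstream in LSC 2 and HSC 2.

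**Figure D2:**
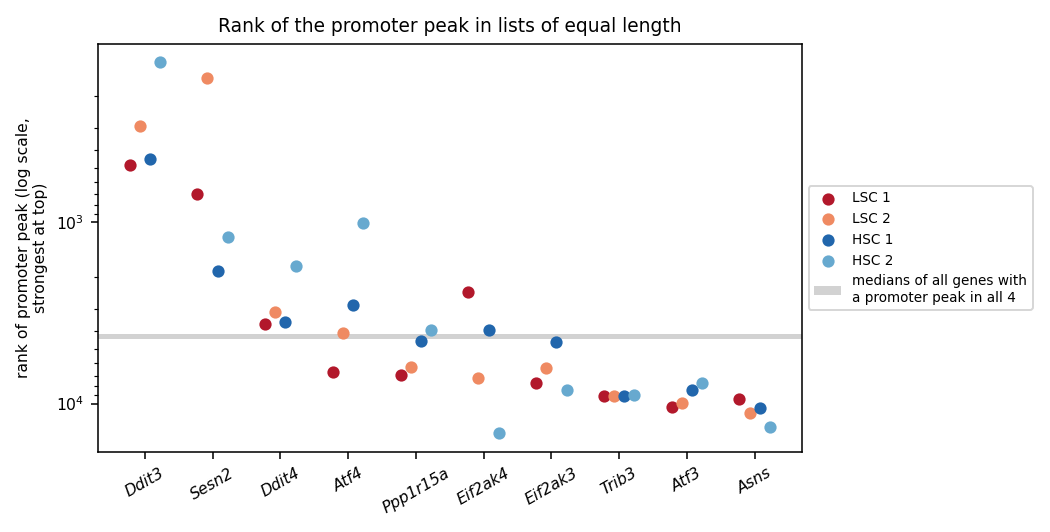
Rank of the strongest promoter peak of each gene among the 34185 peaks of each equal-sized list, on a log axis with the strongest at the top, 1 point per library. The grey band spans the library medians of all genes with a promoter peak in all 4 lists (4145 to 4377). Ddit3 and Sesn2 lie far above it in all libraries, and Trib3, Atf3, Asns and Eif2ak3 below it, Eif2ak3 only slightly in HSC 1.

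Taken over the 10 genes, promoter peaks ranked somewhat lower in LSCs, with libraries of a group also apart. The median rank was 6830 and 6329 in LSC 1 and LSC 2 and 4212 and 5811 in HSC 1 and HSC 2, a difference of 1568 ranks, against medians of 4288 and 4145 in the LSC libraries and 4377 and 4355 in the HSC libraries over all 7973 genes with a promoter peak in all 4 lists. A two-sided exact permutation test over the 4 libraries gave p = 0.33, the smallest value that 2 against 2 allow, so no comparison in these data could pass 0.05. Without HSC 1 the difference was 768 ranks and without HSC 2 it was 2367. Atf4, Atf3 and Ppp1r15a ranked weaker in both LSC libraries than in either HSC library, as did 17.8% of those genes. Sesn2 ranked stronger in both, as did 30.5%, and the other 6 overlapped. Promoter peaks of 12 mature neutrophil genes, a list written with earlier results of these data known, also ranked lower in LSCs, with medians, counting a gene with no listed promoter peak as last, of 15408 and 9138 in LSC 1 and LSC 2 and 4841 and 5901 in HSC 1 and HSC 2. Of these 12 genes, 10 and 11 had a promoter peak in the LSC libraries and 12 and 12 in the HSC libraries, and Retnlg had none in either LSC library. Other lists, counted in the same way, did not share this order. For 88 other stress response genes the medians were 4073 and 3584 in LSC 1 and LSC 2. In HSC 1 and HSC 2 they were 3548 and 4299, so the groups overlapped. Medians of 6 sorting marker genes went the other way, at 4772 and 3406 in the LSC libraries and 13347 and 8644 in the HSC libraries. Any part of the neutrophil genes in the ranks of the 10 genes was not tested.

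The windows as a whole were less covered by peaks in LSCs than in HSCs, in lists of both kinds, and in deposited lists this held over all genes too. Of 316 kb in the 10 windows, 47.4 and 58.0 kb lay under peaks in LSC 1 and LSC 2 and 72.0 and 98.0 kb in HSC 1 and HSC 2. That is 16.7% ± 2.40 in LSCs and 26.9% ± 5.80 in HSCs (SD, n = 2 each), a difference of -10.2 percentage points (exact permutation p = 0.33), and of -6.08 without HSC 2. Over the windows of all protein-coding genes the shares were 4.47% and 5.12% in the LSC libraries and 6.84% and 11.1% in the HSC libraries. By geometric means the HSC share was 1.60 times the LSC share in the 10 windows, a smaller ratio than the 1.82 over all genes. Gene by gene, both LSC libraries lay below both HSC libraries at 8 of 10 genes, all but Eif2ak4 and Asns, against 48.4% of all genes, and at none was the order opposite, against 1.32%. In equal-sized lists this held at 5 of 10, Atf3, Ddit3, Ppp1r15a, Sesn2 and Ddit4, against 12.5%. Asns was the 1 gene with the opposite order there, at 4.66% and 5.77% in LSC 1 and LSC 2 and 3.74% and 3.86% in HSC 1 and HSC 2, an order seen at 18.1% of genes. These shares of all genes include genes lacking a window peak in some libraries, while the 10 genes had one in every library. Shares among genes with a window peak in all 4 libraries were not computed. Summed over the 10 windows, equal-sized lists gave 14.6% and 18.4% in the LSC libraries and 18.8% and 20.1% in the HSC libraries, a difference of -2.96 percentage points (exact permutation p = 0.33). Over the windows of all genes those shares were 4.29% and 5.12% in the LSC libraries and 4.62% and 5.26% in the HSC libraries. The ratio of HSC to LSC geometric means in equal-sized lists was 1.19 in the 10 windows, against 1.05 over all genes.

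**Figure D3:**
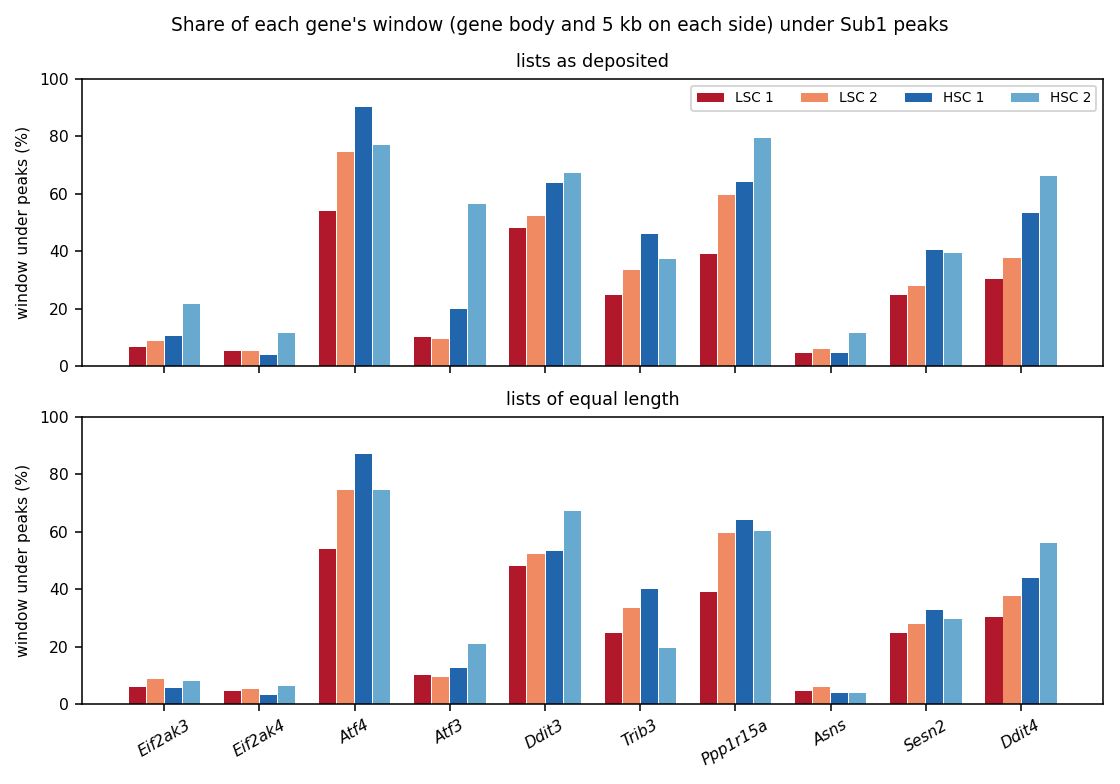
Percent of each gene's window (gene body and 5 kb on each side) under Sub1 peaks, as bars from 0, 1 bar per library, in deposited lists (top) and equal-sized lists (bottom). The LSC bars are below the HSC bars at 8 genes in the top panel and at 5 in the bottom panel, and Atf4 has the highest single bar, 90.2% in HSC 1.

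Beyond 1 kb of the starts, the windows were less covered in LSCs, at 10.1% and 13.4% in LSC 1 and LSC 2 and 18.4% and 27.1% in HSC 1 and HSC 2 (exact permutation p = 0.33). Over the 17492 genes with an annotated start those shares were 3.26% and 3.98% in the LSC libraries and 6.00% and 10.4% in the HSC libraries. Within 1 kb of the 10 starts, 87.9% and 92.4% were covered in LSC 1 and LSC 2 and 87.1% and 89.0% in HSC 1 and HSC 2 (exact permutation p = 0.67). Over all genes those shares were 43.3% and 43.5% in the LSC libraries and 39.0% and 42.9% in the HSC libraries. The ceiling of 100% limits differences among the 10 genes. Genes with a promoter peak in all 4 libraries still differed, with medians of 90.7% and 98.5% (LSC) and 82.3% and 84.9% (HSC). Beyond 1 kb both LSC libraries lay below both HSC libraries at 9 of 10 genes, all but Eif2ak4, against 52.3% of genes, and above at none, against 0.697%. The shares beyond 1 kb in equal-sized lists were 9.60% and 13.4% in the LSC libraries and 14.2% and 15.4% in the HSC libraries (exact permutation p = 0.33). Both LSC libraries were then lower at 5 of 10 genes, Atf3, Atf4, Ddit3, Sesn2 and Ddit4, against 14.2% of genes, and higher at none, against 14.0%. The shares of genes given for coverage beyond 1 kb likewise include genes lacking a window peak in some libraries. Peaks with their summit in the gene body away from the promoter numbered 11 and 5 in LSC 1 and LSC 2 and 32 and 47 in HSC 1 and HSC 2. Per gene that is 1.10 and 0.500 in the LSC libraries and 3.20 and 4.70 in the HSC libraries, against 0.811 and 0.621 (LSC) and 2.74 and 5.20 (HSC) over all genes. In equal-sized lists they numbered 9 and 5 in the LSC libraries and 9 and 10 in the HSC libraries (exact permutation p = 0.67), so the excess in HSCs lay in peaks outside these lists.

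The windows held 41 and 28 peaks in LSC 1 and LSC 2 and 70 and 90 in HSC 1 and HSC 2. By geometric means HSC libraries had 2.34 times as many (exact permutation p = 0.33), against 3.37 times as many per gene over all protein-coding genes. Both LSC libraries had fewer peaks than both HSC libraries at 6 of 10 genes, a share near the 57.9% of all genes, and more at none, against 0.210%. In equal-sized lists the windows held 38 and 28 peaks in the LSC libraries and 38 and 33 in the HSC libraries, a log2 ratio of -0.12 against -1.23 in deposited lists (exact permutation p = 1.00 in equal-sized lists). There both LSC libraries had fewer peaks at 1 gene, Eif2ak4, against 6.79% of all genes, and more at none, against 8.16%. Peaks of the 4 lists, merged where they overlapped, formed 90 regions away from the promoters of the 10 genes. Of these, 14 (15.6%) were seen in each HSC library but no LSC library, against 9.93% of such regions around all genes, and 7 (7.78%) in each HSC library and 1 LSC library, against 3.62%. The converse, each LSC library but no HSC library, was seen for 0, against 0.312%. Regions in all 4 libraries numbered 6 (6.67%), against 4.00%, and lay 1 each at Eif2ak3, Eif2ak4, Trib3, Ppp1r15a, Sesn2 and Ddit4. Those at Eif2ak4, Trib3 and Ppp1r15a hold annotated starts of the neighbours Srp14, Rbck1 and Plekha4. A further 58 (64.4%) were in 1 library alone, against 77.8%, of which 36 were in HSC 2. The 14 HSC regions lay mostly at Eif2ak3, with 5, and Atf3, with 4. Equal-sized lists gave 38 regions, of which 0 were in HSC 1 and HSC 2 alone, against 3.38% of such regions around all genes, 2 (5.26%) in LSC 1 and LSC 2 alone, against 5.41%, and 2 in all 4, against 9.68%. The HSC regions of the deposited lists thus rested, in at least 1 of the 2 libraries, on peaks outside the equal-sized lists.

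**Figure D4:**
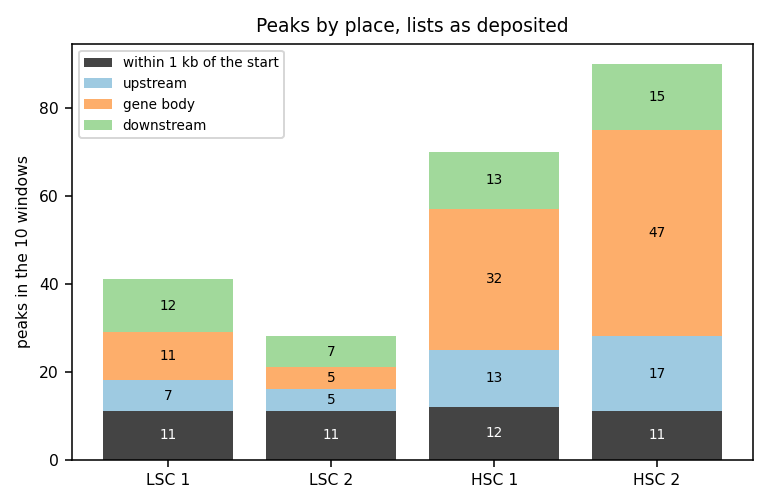
Number of peaks in the 10 windows in each library (deposited lists), stacked by place: within 1 kb of an annotated start, or by summit upstream, in the gene body or downstream. The promoter part is 11 or 12 in all libraries, while the gene body part is 11 and 5 in LSC 1 and LSC 2 and 32 and 47 in HSC 1 and HSC 2.

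Other genes of the stress response carried promoter peaks nearly throughout. Of 110 genes in 7 lists, 88 had an annotated start in the promoter table, and 84 and 84 of these had a promoter peak in LSC 1 and LSC 2 and 85 and 85 in HSC 1 and HSC 2 (exact permutation p = 0.33). Over all 17492 genes the shares were 55.0% and 52.8% in LSC 1 and LSC 2 and 56.1% and 63.5% in HSC 1 and HSC 2. All 4 libraries had one at 80 of the 88 genes, against 49.8% of all genes. That was 12 of 12 genes for eIF2 and its control, led by Eif2b4 and Eif2s2, and 18 of 18 for the IRE1 and ATF6 arms of the unfolded protein response, led by the chaperone genes Hspa5 and Calr. It was 8 of 8 aminoacyl-tRNA synthetase genes, led by Aars and Eprs, and 6 of 6 mitochondrial stress genes, led by the protease gene Lonp1 and by Hspd1, which shares 1 peak with Hspe1. Of 13 bZIP genes 12 had one in all 4, led by Cebpa and Nfe2l2. Of 17 genes of amino acid synthesis and transport 14 did, led by Slc3a2 and Psph, and of 14 other stress targets 10 did, led by Herpud1 and Ero1l. Each pair named had the best weakest rank in its list.

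The exceptions were few and went both ways. Cbs, the enzyme that makes cystathionine, had a promoter peak in LSC 1 and LSC 2 but not in HSC 1 or HSC 2 (ranks 17093 and 15943), as did 0.480% of all genes. Batf3, a bZIP gene, had one in HSC 1 and HSC 2 alone, as did 2.29%, and in equal-sized lists had none. In equal-sized lists Slc6a9, a glycine transporter gene, joined Cbs in LSCs alone, against 2.77% of genes, and no gene of the lists was in HSCs alone, against 0.280%. There the lists had 84 and 84 genes with a promoter peak in LSC 1 and LSC 2 and 81 and 81 in HSC 1 and HSC 2, so the direction of the small difference turned with list length. No gene of the 88 was without a promoter peak in all deposited lists, while Stc2 and Batf3 had none in any equal-sized list. Slc7a11, the cystine transporter gene and an ATF4 target, had a promoter peak in LSC 2, HSC 1 and HSC 2 and not in LSC 1, and Phgdh, of serine synthesis, in all but HSC 2. Nupr1, Stc2, Vldlr and Fgf21 likewise had one in a part of the libraries that did not follow the groups.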

How the data were processed

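Sub1 CUT&Tag was measured in 2 LSC and 2 HSC libraries, with 1 deposited peak list per library. The submitters' processing notes name FastQC 0.11.5, Bowtie2 2.2.9, MACS2, ChIPseeker and the build mm10; the peak caller's settings, duplicate handling and any control are not given in the sources used here. The deposited lists give for each peak a fold, the authors' ratio of pileup over background, -log10 p and -log10 q, a score of 10 times -log10 q, and the summit's offset. The lowest -log10 q was 5.36 and 5.41 in LSC 1 and LSC 2 and 5.21 and 5.26 in HSC 1 and HSC 2. The background per library was solved from fold and -log10 p by the caller's Poisson formula, and covers counting depth only.

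Gene ends and starts came from RefSeq GRCm38.p6, the mm10 assembly; promoter results use the 17492 protein-coding genes with an entry in the promoter table, and windows use 21887. Overlap meant at least 1 bp. Peaks were ranked by -log10 p, then fold. For single values per library a two-sided exact permutation test over the 6 possible assignments was used. The members and lists were chosen with earlier results of these data known. All 10 members are named, with pathway genes present in a single group only, those with no promoter peak, and the best 2 of each list by weakest rank; those with promoter peaks in part of a group were added after their values were seen. Alternatives were other windows and promoters, a -log10 q of at least 10, summits, equal-sized lists, ranking by fold, shorter lists, leaving out each library, and a replicate block. Overlap, coverage and rank steps were tested on simulated data. Computations used SciPy 1.17.1, pandas 2.3.3 and NumPy 2.4.6 under Python 3.11.15, and matplotlib 3.10.9 drew the figures.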

Additional observations from a re-analysis of the deposited data

How the results depend on the processing

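No exact test passed 0.05 under any setting (0 of 52 tests), since 2 libraries against 2 cannot go below p = 0.33. The presence of a peak in the windows of all 10 genes held in all 4 libraries under every alternative run, and of a promoter peak in all but 1: when the summit had to lie within 1 kb, 9 of 10 genes had one in HSC 1 and 10 in the other libraries (difference 0.50 genes). The count of pathway genes with a promoter peak reversed in equal-sized lists, to a difference of 3 genes, against -1 in deposited lists and without any 1 library. The covered share, the number of peaks and the median rank kept their direction under every alternative, with the difference in covered share falling to -2.96 percentage points and that in peaks to -0.12 on the log2 scale (from -1.23) in equal-sized lists. For the median rank, ranking by fold, other promoters and shorter lists returned the same library values, with a difference of 1568 ranks. A replicate block keeps the mean difference of any result, so only leaving out a library moved that of the ranks. Leaving out 1 library gave covered-share differences from -14.31 to -6.08 percentage points, log2 ratios of peaks from -1.50 to -0.95, and rank differences from 768 (without HSC 1) to 2367 (without HSC 2). Same-numbered libraries share only a number in the labels: over 21887 genes their deviations correlated at r = -0.23. With the replicate block the covered-share difference was -10.19 percentage points with an exact p of 0.50, the smallest that 2 pairs allow, and 0 of 6 results were called. With the numbers crossed, an alternative added after the data were seen, 0 of 6 were called. Coverage near and beyond the starts, gene body peaks and regions in equal-sized lists were also added then. Unequal list lengths limit every comparison of weak peaks.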
